A study of Mus musculus with 11 samples.

Results

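The 10 genes described here encode G protein-coupled receptors through which hormones, neurotransmitters and lipids act on pancreatic islet cells. They were chosen by name, as *Glp1r*, *Gipr*, *Gcgr*, *Ffar1*, *Gpr119*, *Sstr2*, *Sstr3*, *Adra2a*, *Chrm3* and *Galr1*, and are 10 of the 55536 genes counted in each library. Islet RNA came from female C57BL/6J wild-type mice, and the question of the study was how islets that have gone through several pregnancies respond to a raised demand for insulin. Multipara mice had started at 9 weeks of age and had carried 3 consecutive pregnancies, with islets taken 3 weeks after the last delivery, and virgin mice of matched age were the controls. S-961, an insulin receptor antagonist peptide, was injected at 100 nmol/kg, 2 times a day for 3 days. There were 2 libraries labelled virgin and 2 labelled multipara without treatment, and 3 labelled virgin and 4 labelled multipara with S-961. No vehicle injection is described for the untreated mice, and if none was given, S-961 and the act of injection cannot be told apart. The study gives as many mice as libraries for the S-961 groups, the labels do not say what an untreated library came from, and p-values measure only the spread between these samples.

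The incretin hormones GLP-1 and GIP are released by the gut after a meal and raise insulin secretion through receptors that couple to Gs, the G protein that activates adenylyl cyclase and so raises cAMP. The glucagon receptor and GPR119, a receptor for lipid amides, use the same route. FFAR1, the receptor for long-chain fatty acids, and the muscarinic M3 receptor, which receives acetylcholine, couple to Gq and release calcium from internal stores. Somatostatin, noradrenaline and galanin act on the Gi-coupled receptors SSTR2, SSTR3, ADRA2A and GALR1, which lower cAMP and restrain secretion. CREB, the transcription factor that cAMP switches on, binds a DNA element called the CRE, with the letters TGACGTCA.

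On the genome build GRCm38 the receptor genes lie at chr17:30901817-30940791 (*Glp1r*), chr7:19156061-19166127 (*Gipr*), chr11:120530699-120538986 (*Gcgr*), chr7:30857390-30861564 (*Ffar1*, 1 exon), chrX:48667979-48674478 (*Gpr119*), chr11:113619342-113626028 (*Sstr2*), chr15:78537008-78544685 (*Sstr3*), chr19:54044151-54048982 (*Adra2a*) and chr13:9875486-10360847 (*Chrm3*). No other gene of the annotation shared an exon base with any of the 10.

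RefSeq start sites with 250 bases of upstream sequence (GRCm38.p6) were at hand for 8 of the 10, in 9 windows, with none for *Gipr* or the galanin receptor. Sequence is printed for *Sstr2*, the receptor gene with a full CRE, for *Gpr119*, which holds the first 5 letters of one, and for *Ffar1*, where no searched motif was found. Capitals mark motif matches on either strand, and the sequences read 5′ to 3′ toward the gene. They stand at chr11:113619077-113619326 on the plus strand, chrX:48674479-48674728 on the minus strand and chr7:30861565-30861720 on the minus strand, and the stretch for *Ffar1* is cut to the 156 bases outside annotated exons.
Sstr2: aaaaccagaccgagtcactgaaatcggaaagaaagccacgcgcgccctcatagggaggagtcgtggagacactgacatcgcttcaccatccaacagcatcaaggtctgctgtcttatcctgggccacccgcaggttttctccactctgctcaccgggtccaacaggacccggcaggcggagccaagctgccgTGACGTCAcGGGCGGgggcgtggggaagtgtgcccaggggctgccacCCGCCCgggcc
Gpr119: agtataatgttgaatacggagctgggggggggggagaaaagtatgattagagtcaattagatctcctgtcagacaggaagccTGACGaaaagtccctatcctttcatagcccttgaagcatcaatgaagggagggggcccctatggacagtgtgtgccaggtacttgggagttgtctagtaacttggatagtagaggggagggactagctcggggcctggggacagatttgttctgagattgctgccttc
Ffar1: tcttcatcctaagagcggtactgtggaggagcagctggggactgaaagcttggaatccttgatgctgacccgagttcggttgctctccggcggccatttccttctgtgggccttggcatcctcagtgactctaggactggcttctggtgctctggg
The CRE of *Sstr2* spans positions -58 to -51 from the RefSeq start site at 113619327, and 1.55% of the 32841 windows of this length hold these letters. The GENCODE annotation starts this gene at 113619342 instead, so the positions hold for the RefSeq site only. The shorter letters TGACG, part of every CRE and present in 17.8% of windows, also stood in *Gpr119* from position -168, in *Adra2a* from position -69 and in 1 of the 2 windows of *Sstr3* from position -9. The last 2 matches lie within exons of the GENCODE annotation. The E-box CACGTG (6.02% of windows) was found in *Adra2a* and *Sstr3*, the TATA box TATAAA (12.4%) in *Adra2a* alone among the 8, the CCAAT box (33.9%) in the other window of *Sstr3*, and the GC box GGGCGG (32.7%) in *Glp1r*, *Gcgr*, *Sstr2* and *Adra2a*. The NBRE AAAGGTCA, the element bound by NR4A factors (1.34%), was in none of the 9 windows. A match of letters is a description and not a binding site.

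Total counts per library ran from 22028507 to 32234146. Levels are given as CPM, read counts scaled to a common library size, after TMM scaling of all 11 libraries together, which sets the scale so that most genes do not change. The TMM factors ran from 0.720 to 0.845 in untreated and from 1.07 to 1.30 in S-961 libraries. Reads of the insulin genes *Ins1* and *Ins2* made up 35.3% to 41.4% of untreated and 13.2% to 20.7% of S-961 libraries. All 10 beta cell markers were expressed, with a summed level of 457072 to 615004 CPM in untreated and 123659 to 234735 CPM in S-961 libraries. Most of that sum is *Ins1*, *Ins2* and *Iapp*, and of the 10 markers 3 rose and 3 fell with S-961 in virgin and 4 rose and 3 fell in multipara islets (median log2 fold change -0.14 and -0.17). The 15 acinar markers, digestive enzyme genes of the exocrine pancreas, summed to 127 to 204 CPM in untreated and 1965 to 13019 CPM in S-961 libraries, and 14 of them rose with S-961 in each parity group. A pair of libraries stood apart from their groups. The untreated library multipara 1 had immune markers at 841 CPM against 103 in multipara 2, and proliferation markers at 98.9 CPM against 7.50 in multipara 2 and 12.5 to 18.2 in the untreated virgin libraries. The library multipara S-961 4 had proliferation markers at 13.95 CPM against 151 to 332 in the other 3 and 12.2 to 32.1 in the virgin S-961 libraries. Proliferation markers thus placed it with the virgin S-961 libraries, while the other 3 libraries labelled multipara S-961 stood above all of those. The study reports cell cycle genes such as *Cdk1* as lower in multipara than in virgin islets with S-961. Here *Cdk1* was at 11.02 to 33.7 CPM in those 3 libraries and at 0.712 to 1.39 CPM in the virgin ones. The labels of the S-961 libraries are therefore in doubt. The study also reports *Lrrc55* and *Matn2* as higher in multipara islets, with and without S-961. Their values were not used to check the labels here. The S-961 effects in virgin and in multipara islets, the multipara against virgin S-961 values and the interaction all rest on the labels as given. In bulk RNA, fewer cells of a type and less RNA per cell cannot be told apart.

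**Figure D1:**
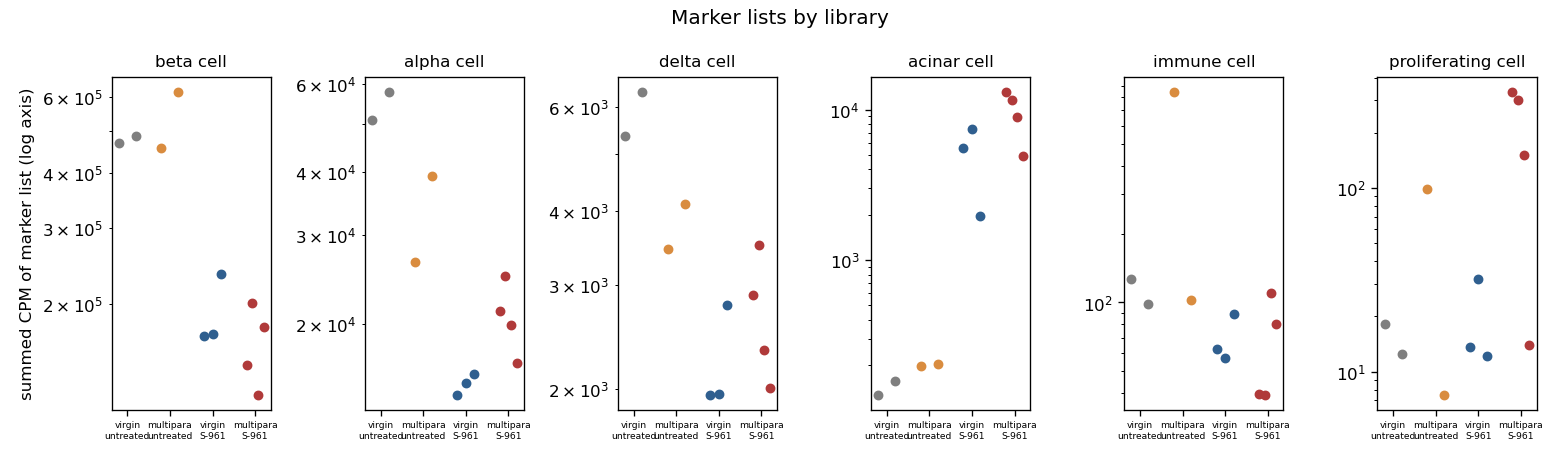
Summed CPM of 6 marker lists (vertical axes, log scale) in each library (points) of the 4 groups. Acinar markers lay at 127 to 204 CPM in untreated and at 1965 to 13019 CPM in S-961 libraries, and 1 untreated multipara library held the highest immune level, 841 CPM.

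The first comparison asked how receptor levels differed after S-961 within virgin and within multipara islets. *Sstr3*, a receptor that carries the somatostatin brake and sits on primary cilia, fell in both parity groups. *Ffar1* fell in both groups as well, and *Adra2a* rose in both. *Sstr2* fell and *Galr1* rose in virgin islets, and *Gipr* fell and *Gpr119* rose in multipara islets. In virgin islets 5 of the 10 receptors passed an adjusted p of 0.05 in edgeR's quasi-likelihood test, 2 higher and 3 lower, where 36.5% of all 17996 genes tested did (18.8% higher and 17.6% lower). In multipara islets 5 of 10 passed, again 2 higher and 3 lower, beside 37.6% of all genes (18.2% higher and 19.4% lower). At an unadjusted p of 0.05 edgeR called 6 of the 10 in virgin and 7 of the 10 in multipara islets, beside 46.4% and 47.8% of all genes. The median log2 fold change of the 10 was -0.07 in virgin and -0.18 in multipara islets, beside -0.04 and 0.03 over all genes.

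*Sstr3* was at 542 and 617 CPM in the untreated virgin libraries and at 459 and 547 CPM in the untreated multipara libraries. After S-961 the values were 188, 180 and 171 CPM in the virgin and at 180.1, 181, 206 and 165 CPM in the multipara libraries. Every S-961 library was thus below every untreated one, with a gap wider than the spread within any group. Its log2 fold change was -1.69 ± 0.14 (SE, adjusted p = 8.5e-05, edgeR) in virgin islets and -1.46 ± 0.13 (adjusted p = 8.12e-05, edgeR) in multipara islets. The call held in every alternative scaling, filter, tool and left-out library tried.

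*Sstr2*, the somatostatin receptor best known from alpha cells, had the lowest counts of the 10, at 29 to 118 reads per library. It was at 4.21 and 4.31 CPM in untreated virgin and at 2.50 and 2.58 CPM in untreated multipara libraries. Treated libraries were at 0.896, 2.53 and 1.13 CPM in virgin and at 1.82, 2.07, 3.04 and 1.80 CPM in multipara libraries. The virgin groups did not overlap, while the untreated multipara values lay inside the range of their S-961 group. On the log2 scale the change was -1.48 ± 0.42 in virgin islets (adjusted p = 0.0186, edgeR) and -0.22 ± 0.41 in multipara islets (adjusted p = 0.69, edgeR). Summed alpha cell markers stood in the same order of groups as *Sstr2*. They were at 50909 to 57675 CPM in untreated virgin and 26587 to 39236 in untreated multipara libraries. With S-961 they were at 16725 to 24878 CPM in multipara and 14457 to 15880 in virgin libraries. Most of that sum is *Gcg*. Of the 8 alpha cell markers 0 rose and 5 fell with S-961 in virgin islets, and 3 rose and 1 fell in multipara islets. The part of these markers in the result was not tested. Without virgin S-961 2 the virgin change was -2.07, beside -1.69 for *Sstr3*. The virgin call was lost without virgin S-961 1 (-1.21, adjusted p = 0.0608), without virgin S-961 3 (-1.31, 0.0562), and without untreated virgin 1 (-1.50, 0.0797) or 2 (-1.46, 0.0909).

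*Adra2a*, which relays the adrenergic block of insulin release, was at 139 and 131 CPM in untreated virgin and 118 and 161 CPM in untreated multipara libraries. S-961 libraries read 206, 209 and 168 CPM in virgin and 222, 191, 199 and 163 CPM in multipara libraries. All 7 S-961 values were above all 4 untreated ones, although 163 CPM in multipara S-961 4 was only just above 161 CPM in untreated multipara 2. The log2 fold change was 0.52 ± 0.18 (adjusted p = 0.0403) in virgin and 0.48 ± 0.17 (adjusted p = 0.047, edgeR) in multipara islets. Both calls lay close to the threshold and were lost in turn without virgin S-961 1 or 2, without either untreated virgin library, and without multipara S-961 1 or 3 or untreated multipara 1, where the log2 fold change ran from 0.27 to 0.57 and the adjusted p from 0.0552 to 0.371. They were also lost when *Ins1* and *Ins2* were left out of the totals (0.48 and 0.46, adjusted p = 0.055 and 0.0555), and in multipara islets with DESeq2's size factors (0.46, adjusted p = 0.0518, edgeR).

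*Galr1*, a receptor for galanin, which sympathetic nerves of the pancreas release, lies at chr18:82392380-82406777. It was at 20.05 and 18.2 CPM in untreated virgin and 16.4 and 21.999 CPM in untreated multipara libraries. In S-961 libraries it was at 27.8, 28.8 and 27.9 CPM in virgin and 26.1, 23.3, 22.4 and 25.0 CPM in multipara libraries. The S-961 libraries were above the untreated ones in both parity groups. Its log2 fold change was 0.56 ± 0.14 (adjusted p = 0.0109, edgeR) in virgin islets and 0.34 ± 0.14 (adjusted p = 0.0708, edgeR) in multipara islets. The virgin call was lost without untreated virgin 1 (0.63, adjusted p = 0.0507) or 2 (0.49, adjusted p = 0.113). In multipara islets a call was made without multipara S-961 3 (0.37, adjusted p = 0.0468) or without untreated multipara 2 (0.57, adjusted p = 0.0259).

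*Ffar1* was at 146 and 161 CPM in untreated virgin and 154 and 203 CPM in untreated multipara libraries. With S-961 it was at 81.0, 92.2 and 63.1 CPM in virgin and 94.5, 68.6, 137 and 77.4 CPM in multipara libraries. The groups did not overlap within either parity, and multipara S-961 3 was the highest of the treated libraries. On the log2 scale the change was -0.96 ± 0.27 (adjusted p = 0.0172, edgeR) in virgin and -0.92 ± 0.25 (adjusted p = 0.0158, edgeR) in multipara islets. The virgin call was lost without virgin S-961 3 (-0.83, adjusted p = 0.0536) and without untreated virgin 1 (-1.03, 0.0623) or 2 (-0.89, 0.106), and the multipara call without untreated multipara 2 (-0.70, 0.138).

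*Chrm3*, the other Gq-coupled receptor, ranged from 31.9 to 47.2 CPM over the 11 libraries. Its log2 fold change with S-961 was -0.09 ± 0.17 in virgin and 0.02 ± 0.16 in multipara islets (adjusted p = 0.715 and 0.944, edgeR), and the groups overlapped in both.

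*Gipr* was at 93.7 and 111 CPM in untreated virgin and 114 and 129 CPM in untreated multipara libraries. After S-961 the values were 67.5, 78.0 and 84.0 CPM in virgin and 59.2, 64.6, 89.0 and 82.0 CPM in multipara libraries. All 7 S-961 libraries were below all 4 untreated ones. The log2 fold change was -0.72 ± 0.17 (adjusted p = 0.00804, edgeR) in multipara and -0.42 ± 0.18 (adjusted p = 0.0952, edgeR) in virgin islets. The multipara call was lost without untreated multipara 2 (-0.63, adjusted p = 0.0685).

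*Glp1r* was at 525.7 and 519 CPM in untreated virgin and 635 and 711 CPM in untreated multipara libraries. Treated libraries were at 516, 549 and 447 CPM in virgin and 311, 285, 540 and 584 CPM in multipara libraries. The multipara S-961 group thus held 2 low and 2 high values, with a coefficient of variation of 35.9% against 10.3% in the virgin S-961 group. Its log2 fold change was -0.05 ± 0.29 in virgin (adjusted p = 0.907) and -0.65 ± 0.27 in multipara islets (adjusted p = 0.0781, edgeR), and no library of the multipara S-961 group reached the untreated multipara values. Without multipara S-961 4, the library whose proliferation markers were low, the multipara value was -0.83 (adjusted p = 0.0282), and without multipara S-961 3 it was -0.78 (adjusted p = 0.0392). DESeq2 also called the multipara value (-0.66, adjusted p = 0.0388).

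*Gcgr* ranged from 30.1 to 45.2 CPM over the 11 libraries. Its log2 fold change with S-961 was 0.31 ± 0.16 in virgin, where the groups did not overlap, and -0.15 ± 0.15 in multipara islets, where they did (adjusted p = 0.142 and 0.443, edgeR). *Gpr119* was at 13.4 and 11.2 CPM in untreated virgin and 8.40 and 8.01 CPM in untreated multipara libraries. S-961 libraries read 8.81, 13.9 and 13.7 CPM in virgin and 15.8, 17.95, 23.2 and 12.6 CPM in multipara libraries. The multipara groups did not overlap and the virgin groups did. On the log2 scale the change was 1.08 ± 0.26 (adjusted p = 0.00888, edgeR) in multipara and -0.02 ± 0.26 (adjusted p = 0.954, edgeR) in virgin islets. The multipara call was lost without untreated multipara 1 (1.12, adjusted p = 0.056) or 2 (1.06, adjusted p = 0.0568).

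**Figure D2:**
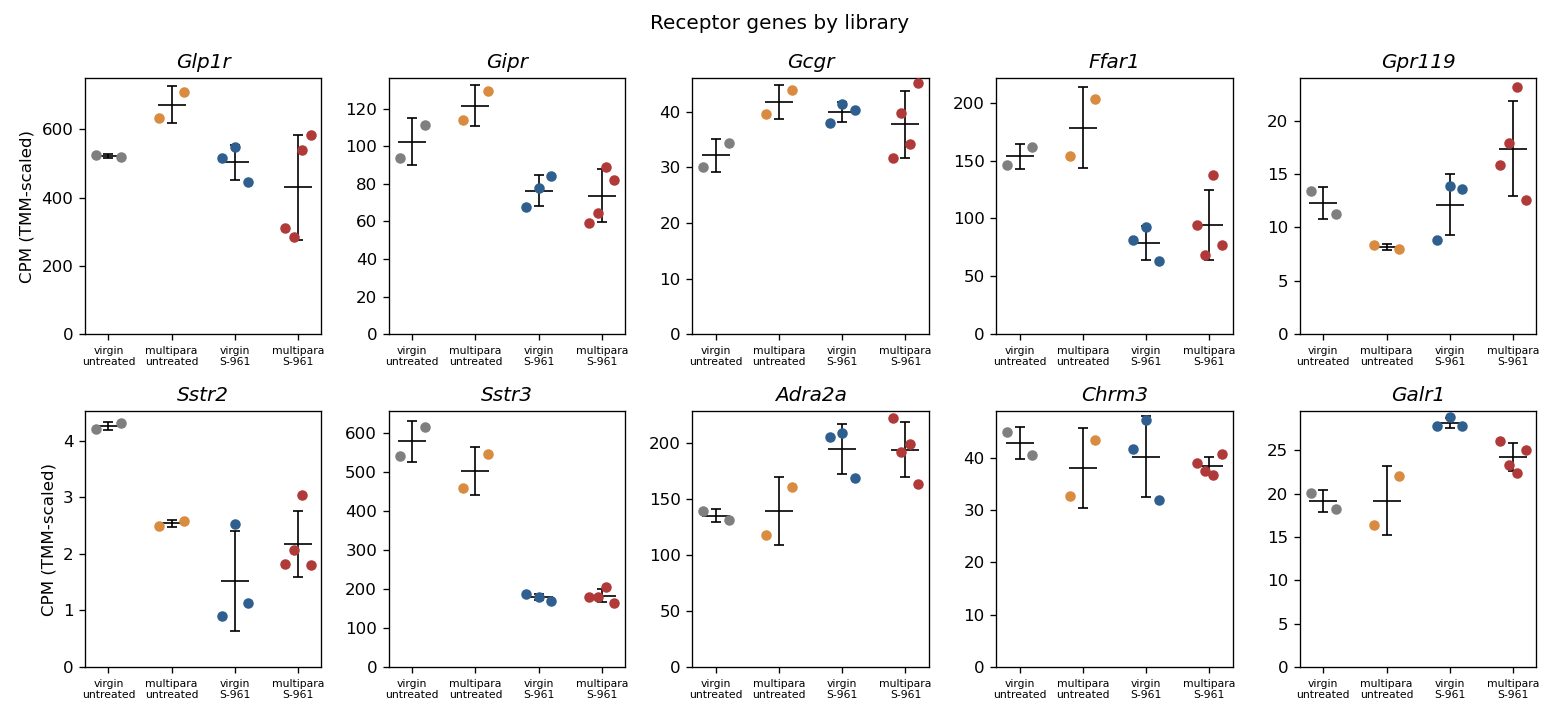
CPM after TMM scaling (vertical axes, from 0) of the 10 receptor genes in each library (points), with the group mean and SD (lines), for 2, 2, 3 and 4 libraries. *Sstr3* lay at 459 to 617 CPM in untreated and 165 to 206 CPM in S-961 libraries, and *Glp1r* in multipara S-961 libraries split into 285 to 311 and 540 to 584 CPM.

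Groups with and without S-961 did not overlap for 7 of the 10 receptors in virgin islets, 3 higher and 4 lower, beside 68.3% of all genes tested (32.8% higher and 35.5% lower). In multipara islets they did not overlap for 7 of the 10, again 3 higher and 4 lower, beside 49% of all genes (24.5% higher and 24.5% lower). Scaling by total counts alone, an alternative added after the data were seen, moved the median of all genes to 0.43 in virgin and 0.61 in multipara islets. It also moved the split of all calls from 3390 higher and 3172 lower to 6409 and 1272 in virgin islets, and from 3272 and 3496 to 7787 and 1304 in multipara islets. The falls of *Sstr3* (-1.22 and -0.86, adjusted p = 0.000184 and 0.000789, edgeR) and the rises of *Adra2a* (0.99 and 1.08) and *Galr1* (1.02 in virgin) and of *Gpr119* in multipara islets (1.68) kept their direction and their call under that scaling. The falls of *Ffar1* (-0.49 in virgin, -0.30 in multipara), of *Sstr2* in virgin (-1.01) and of *Gipr* in multipara islets (-0.13) kept their sign and lost the call (adjusted p = 0.237, 0.42, 0.1 and 0.602, edgeR). *Gcgr* was called higher in both groups under that scaling (0.78 and 0.43), and in multipara islets *Chrm3* (0.61, adjusted p = 0.0123) and *Galr1* (0.93, adjusted p = 0.00022, edgeR) were called higher too.

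The second comparison asked whether receptor levels differed between multipara and virgin islets. After S-961, edgeR called 0 of the 10, beside 0% of the 16784 genes tested, and at an unadjusted p of 0.05 it called 0 of the 10 beside 9.71% of all genes. DESeq2 called 0 of the 10, with 358 genes higher and 11 lower in all. *Gpr119* (0.54 ± 0.25, adjusted p = 0.527), *Sstr2* (0.54 ± 0.41, adjusted p = 0.708), *Ffar1* (0.28 ± 0.25, adjusted p = 0.747) and *Glp1r* (-0.21 ± 0.26, adjusted p = 0.832) had the larger log2 differences, multipara minus virgin. *Galr1* alone of the 10 had groups that did not overlap, as 8.87% of all genes did (5.23% higher and 3.64% lower), with all 4 multipara values below the 3 virgin ones and a log2 difference of -0.20 ± 0.10 (adjusted p = 0.571, edgeR). The remaining 5 differed by 0.07 or less on the log2 scale, with SE of 0.13 to 0.17. Without multipara S-961 4, edgeR called 447 genes higher and 78 lower over the whole table and 0 of the 10 receptors, where *Glp1r* stood at -0.38 (adjusted p = 0.522) and *Gpr119* at 0.67 (adjusted p = 0.184).

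In untreated islets edgeR called 0 of the 10 receptors, beside 0% of the 15812 genes tested. At an unadjusted p of 0.05 it called 4 of the 10, beside 5.62% of all genes. *Glp1r* (0.37 ± 0.10, unadjusted p = 0.0153) and *Gcgr* (0.38 ± 0.10, unadjusted p = 0.0159) were higher in the libraries labelled multipara, on the log2 scale of edgeR. *Gpr119* (-0.58 ± 0.16, unadjusted p = 0.0191) and *Sstr2* (-0.74 ± 0.21, unadjusted p = 0.0212) were lower in them, and the adjusted p in edgeR was 0.719 for each of the 4. Without untreated multipara 2, where the lone multipara library held the high immune markers, edgeR called 1485 genes higher and 253 lower and 0 of the 10. With *Gipr* (0.25 ± 0.12), these were also the 5 receptors whose groups did not overlap, beside 36% of all genes (3 higher and 2 lower, beside 17.3% and 18.8%). DESeq2 called *Glp1r* alone among the 10 (0.37, adjusted p = 0.000986). Beside these values, alpha cell markers were lower in the libraries labelled multipara (26587 to 39236 against 50909 to 57675 CPM), and their part was not tested.

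The difference between the S-961 effects in multipara and virgin islets was tested as an interaction. edgeR called 0 of the 10 and 0% of the 17996 genes, with 6.55% of all genes and 1 of the 10 at an unadjusted p of 0.05, and DESeq2 called 0 of the 10, with 61 genes higher and 20 lower in all. That 1 receptor was *Gpr119*, whose S-961 effect was larger in multipara islets by 1.11 ± 0.36 on the log2 scale (unadjusted p = 0.0114, adjusted p = 0.654, edgeR). *Sstr2* followed with 1.26 ± 0.60 (adjusted p = 0.766), *Glp1r* with -0.60 ± 0.40 (adjusted p = 0.831) and *Gcgr* with -0.46 ± 0.21 (adjusted p = 0.761, edgeR). The calls made in 1 parity group only, for *Sstr2*, *Galr1*, *Gipr* and *Gpr119*, were therefore not shown to differ between the groups.

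**Figure D3:**
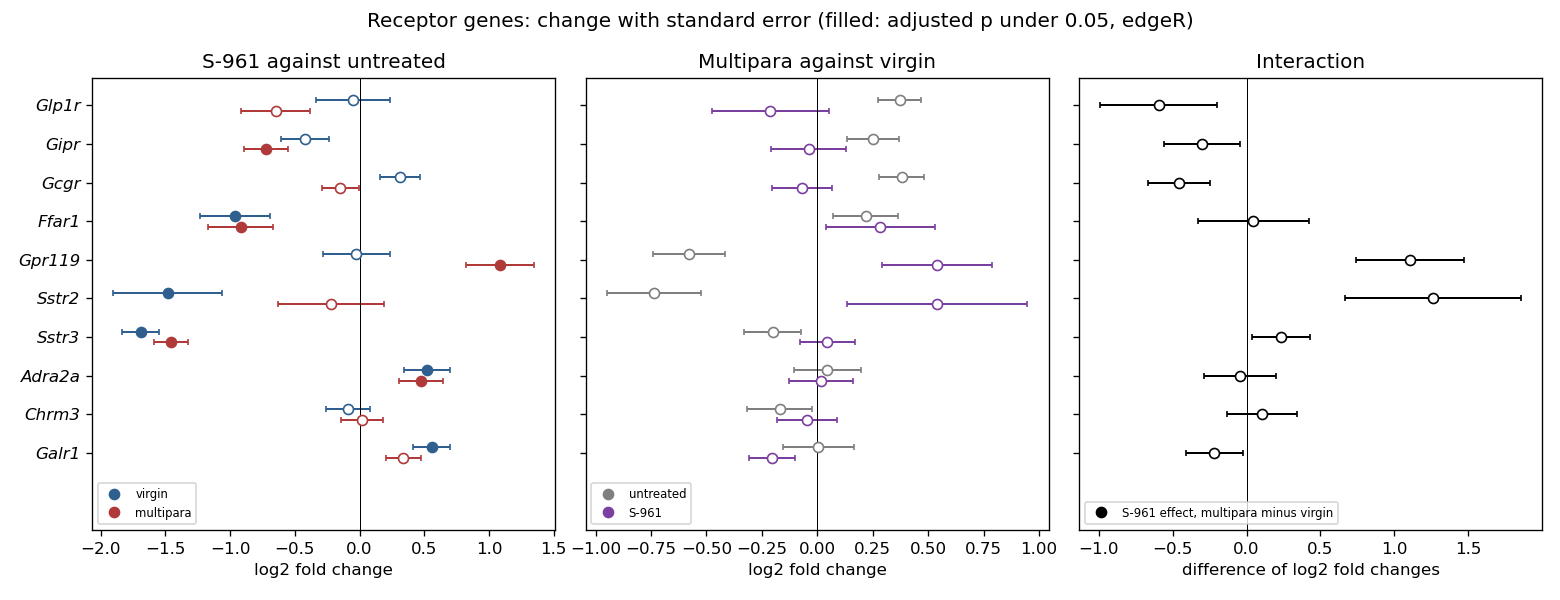
Log2 fold change with its SE (horizontal axes) of the 10 receptor genes for S-961 against untreated, for multipara against virgin, and for the interaction, with filled points where the adjusted p was under 0.05 in edgeR. Filled points appear for S-961 alone, 5 in virgin and 5 in multipara islets, and *Sstr3* lies at -1.69 in virgin and -1.46 in multipara islets.

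To compare levels between genes, CPM was divided by the length of the merged exons (RPKM). *Sstr3* was the highest of the 10 in both untreated virgin libraries, at 126 and 143 RPKM, which was 36.9% and 39.4% of their sum. *Glp1r* was the highest in all 7 S-961 libraries, at 49.0 to 100.5 RPKM. In the untreated multipara libraries the pair stood almost level, with *Sstr3* at 0.972 and 1.03 times *Glp1r*. This ratio was 1.39 and 1.60 in untreated virgin libraries, 0.489, 0.441 and 0.513 in virgin S-961 and 0.780, 0.853, 0.512 and 0.380 in multipara S-961 libraries. *Sstr3* was 3.81 to 5.27 times *Adra2a* per length in untreated libraries and 0.906 to 1.16 times in S-961 libraries, so that the main Gi-coupled receptor transcripts came level. *Sstr2* was the lowest of the 10 in all 11 libraries, at 0.418 to 2.01 RPKM.

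The orders of the groups by mean level differed between receptors. *Glp1r*, *Gipr*, *Ffar1* and *Gcgr* were highest in untreated multipara islets, *Sstr2*, *Sstr3* and *Chrm3* in untreated virgin, *Galr1* and *Adra2a* in virgin S-961 and *Gpr119* in multipara S-961 islets. Apart from steps between S-961 and untreated groups, neighbours in these orders did not overlap for the 2 untreated groups of *Glp1r*, *Gipr* and *Sstr2*, nor for the S-961 groups of *Galr1*. The ranges of the 4 groups overlapped from neighbour to neighbour throughout for *Chrm3* and *Gcgr*.

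As a description made after the values were seen, the RPKM of the 10 were added up by G protein. Gi-coupled receptors made up 48.0% and 49.1% of the sum in untreated virgin, 40.3% and 41.7% in untreated multipara, 36.2% to 38.5% in virgin S-961 and 32.1% to 45.1% in multipara S-961 libraries. Gs-coupled receptors made up 38.4% and 39.6% in untreated virgin and 51.0% to 54.0% in virgin S-961 libraries. They made up 47.3% and 44.5% in untreated multipara libraries, inside the range of 41.5% to 58.0% in multipara S-961 libraries. Gq-coupled receptors held 8.91% to 13.9% in every library. *Glp1r* and *Sstr3* carry most of these sums, and the sum itself was 340 to 404 RPKM in untreated and 203 to 278 RPKM in S-961 libraries.

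**Figure D4:**
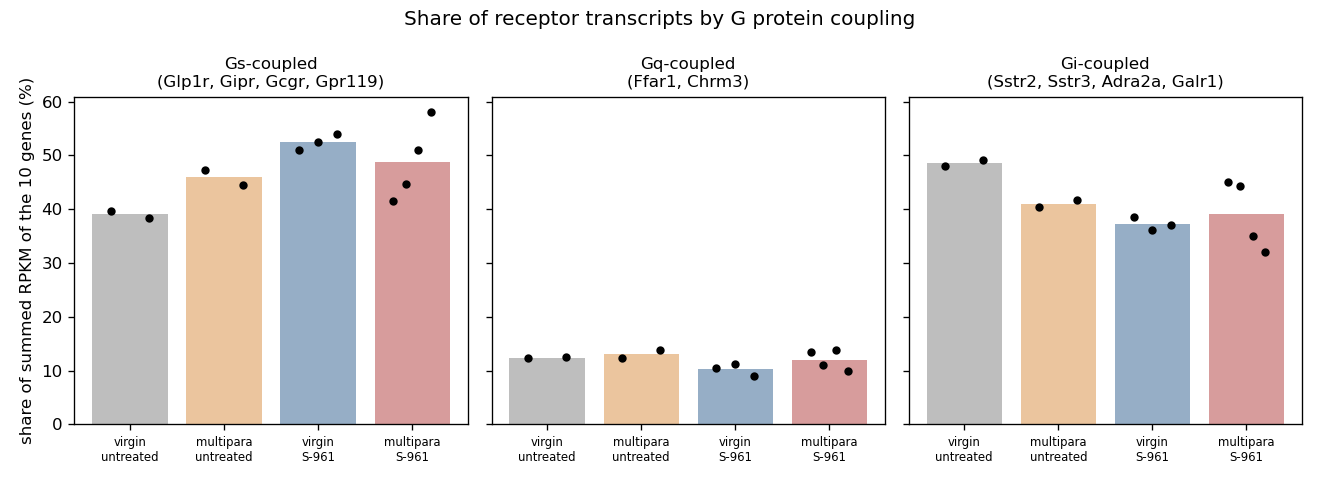
Share of the summed RPKM of the 10 genes (vertical axis, %) held by Gs-, Gq- and Gi-coupled receptors in each library (points), with the group mean as a bar. Gi-coupled receptors held 48.0% to 49.1% in untreated virgin and 36.2% to 38.5% in virgin S-961 libraries, while the multipara S-961 libraries spread from 32.1% to 45.1%.

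The genes with the pattern most like each receptor over the 11 libraries were found among 11286 genes by the mean absolute difference of z-scored log2 CPM. The libraries share their groups, depth and acinar content, so that this is a description. *Sstr3* had the closest neighbours of the 10, *Morn2* (0.0833) and *Fez2* (0.0890), where the median gene lay at 1.19. *Ffar1* was nearest to *Tns2* (0.132) and *Npnt* (0.141), *Galr1* to *Kcnn2* (0.174) and *Esrp1* (0.199), and *Gipr* to *Vps26a* (0.194) and *Bri3* (0.208). *Adra2a* was nearest to *Cdc42bpg* (0.212) and *Usp48* (0.220), and *Glp1r* to *Npr1* (0.237) and *Lrsam1* (0.249). *Sstr2* was nearest to *Zfyve1* (0.270). *Gpr119* (*Cacnb1*, 0.338, and *Atf3*, 0.349), *Chrm3* (*Fam171b*, 0.412, and *Papss2*, 0.432) and *Gcgr* (*Cmtm8*, 0.454, and *Ostm1*, 0.479) had the more distant neighbours. Among the receptors themselves the closest pairs were *Ffar1* and *Sstr3* (0.386), *Adra2a* and *Galr1* (0.402) and *Gipr* and *Ffar1* (0.414).

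A set of 9 lists of genes that work with these receptors were read in the same fits. In the parity comparisons and the interaction edgeR called 0 genes of every list. At an unadjusted p of 0.05 it called 1 to 7 genes per list with S-961, 1 to 6 without treatment and 0 to 9 in the interaction. The shares of all genes were 9.71%, 5.62% and 6.55%. The highest counts were 7 of 28 ligand-gated subunits, 6 of 14 CREB-responsive genes and 9 of 30 ligand-gated subunits. Of 15 phosphodiesterases it called 1, 1 and 0. At an adjusted p of 0.05 DESeq2 called 0 to 2, 0 to 3 and 0 to 2 genes per list. The counts of 0 in edgeR changed with a library left out. Without untreated multipara 2, edgeR called 6 ligands lower, 6 desensitisation and RGS genes higher and 1 lower, 4 other Gi-coupled receptors higher and 3 other Gq-coupled ones lower in untreated islets, and 1 to 5 genes in each remaining list. Without multipara S-961 4 it called up to 1 gene higher and up to 2 lower per list between the S-961 groups, and up to 1 higher and 1 lower in the interaction. Counts that follow are for S-961 against untreated, to be read beside the 36.5% (virgin) and 37.6% (multipara) of all genes called. A gene named for 1 parity group was among the largest calls there. Its naming does not show that the other group lacked the change. Of 16 CREB-responsive genes, which cAMP signalling is known to induce, 10 rose and 1 fell in virgin islets and 10 rose and 0 fell in multipara islets, with a median log2 fold change of 1.21 and 1.67. *Nr4a1*, an orphan nuclear receptor, was at 15.2 to 19.4 CPM in untreated and 277 to 538 CPM in S-961 libraries (4.80 ± 0.31 and 4.38 ± 0.30). *Sik1*, a kinase that restrains CREB's coactivators, rose by 2.77 ± 0.33 and 2.99 ± 0.33. *Nr4a3* rose by 3.38 ± 0.67 in virgin and *Fosb* by 3.20 ± 0.43 in multipara islets. In multipara islets *Nr4a3* was at 1.43 and 0.315 CPM untreated and 1.57 to 4.37 CPM with S-961. In virgin islets *Fosb* was at 114.6 and 102.1 CPM untreated and 407 to 710.6 CPM with S-961. The 1 that fell was *Sst*, the somatostatin gene, in virgin islets (-1.39 ± 0.25, adjusted p = 0.00197, edgeR), at 5096 and 6077 CPM untreated and 1868 to 2669 CPM with S-961. The list of 9 immediate early and heat shock genes, which can also rise while tissue is handled, summed to 873 to 1398 CPM in untreated and 1855 to 3380 CPM in S-961 libraries. *Fosb* is in both this list and that of the CREB-responsive genes. Of the 9, edgeR called 1 higher and 0 lower in virgin islets (median log2 fold change 0.23). In multipara islets it called 6 higher and 0 lower (0.97). The part of this list in the rises of CREB-responsive genes was not tested.

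Of 18 genes for ligands of these receptors, 1 rose and 11 fell in virgin islets and 1 rose and 6 fell in multipara islets, with median log2 fold changes of -1.42 and -0.67. *Ghrl*, the ghrelin gene, fell in both (-2.81 ± 0.43 and -2.31 ± 0.39), and *Vip*, for vasoactive intestinal peptide, fell in virgin islets (-4.50 ± 0.64). *Ppy* (-1.67 ± 0.25) and the urocortin gene *Ucn3* (-1.12 ± 0.17) fell in multipara islets. In virgin islets *Ppy* was called lower too, at 8024 and 5900 CPM untreated and 1152 to 1747 CPM with S-961. *Ucn3* was there at 710.9 and 688.6 CPM untreated and 335.5 to 385.6 CPM with S-961. *Adcyap1*, for the peptide PACAP, was called lower in virgin islets from 0.443 and 0.459 CPM down to at most 0.124 CPM. The 1 called higher was *Gad2*, for an enzyme that makes GABA, in virgin islets, at 0 and 0.0765 CPM untreated and 14.6, 3.74 and 9.80 CPM with S-961, a call that was lost without any 1 of these 5 libraries. In multipara S-961 libraries *Gad2* was at 0.0813, 0.0291 and 0.180 CPM in replicates 1 to 3 and at 11.3 CPM in replicate 4. In multipara islets the 1 called higher was *Gal*, the galanin gene, at 0.268 and 0 CPM untreated and 1.06 to 2.47 CPM with S-961. The ligand list shares *Gcg*, *Sst*, *Ppy*, *Ucn3* and others with the marker lists of islet cells. Summed delta cell markers were at 5359 to 6353 CPM in untreated virgin and 3454 to 4103 in untreated multipara libraries. With S-961 they were at 1953 to 2773 CPM in virgin and 2005 to 3504 in multipara libraries. Most of that sum is *Sst*. Of the 5 delta cell markers 0 rose and 3 fell with S-961 in virgin islets, and 2 rose and 1 fell in multipara islets.

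Other receptors of the same families moved in both directions, with a balance that depended on the scaling. Of 18 other Gs-coupled receptors 2 rose and 3 fell in virgin and 1 rose and 1 fell in multipara islets, and *Adora2b*, an adenosine receptor, fell in both (-2.72 ± 0.73 and -1.90 ± 0.65). Its multipara call (adjusted p = 0.0412, edgeR) was lost without multipara S-961 1, 2 or 4. *Adora2b* was at 10.68 CPM in multipara S-961 3 and 1.71 to 2.59 CPM in the rest of that group, against 14.61 and 16.7 CPM untreated. *Gpr3* was called higher in both, at 0 to 0.202 CPM untreated and 0.754 to 1.66 CPM with S-961. *Ptger4* rose (1.53 ± 0.51) and *Crhr2* (-1.49 ± 0.43) and *Vipr1* (-0.60 ± 0.15) fell in virgin islets. Of 15 other Gq-coupled receptors 4 rose and 3 fell in virgin and 6 rose and 1 fell in multipara islets. *Casr*, the calcium-sensing receptor, rose in both (1.56 ± 0.37 and 2.22 ± 0.38) and *P2ry6* fell in both (-1.56 ± 0.31 and -1.99 ± 0.28). *Cckar*, a cholecystokinin receptor that acinar cells also carry, was at 0 to 0.268 CPM untreated and 1.10 to 7.59 CPM with S-961. *Ffar4*, another receptor for long-chain fatty acids, fell in virgin islets (-1.34 ± 0.25).

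Of 20 other Gi-coupled receptors 2 rose and 6 fell in virgin and 4 rose and 2 fell in multipara islets. *Galr3*, the relative of *Galr1*, was at 2.55 to 3.83 CPM in untreated and 9.86 to 17.5 CPM in S-961 libraries, and rose by 2.22 ± 0.27 in virgin and 2.16 ± 0.27 in multipara islets (adjusted p = 0.000329 and 0.00032, edgeR). *Galr2*, which is listed with the Gq-coupled receptors, rose in virgin islets (1.10 ± 0.32, adjusted p = 0.0205, edgeR). *Ffar3*, for short-chain fatty acids, fell in both (-1.46 ± 0.24 and -1.49 ± 0.23). *Npy1r* (-3.16 ± 0.66) and the cannabinoid receptor *Cnr1* (-1.79 ± 0.53) fell in virgin islets, and *Sstr1* was called higher in multipara islets at 0.407 to 1.11 CPM against 0.0630 and 0.223 CPM untreated. Of 30 ligand-gated neurotransmitter receptor subunits 7 rose and 2 fell in virgin and 6 rose and 1 fell in multipara islets. *Gabra4*, a GABA-A receptor subunit, was at 0.968 to 2.23 CPM untreated, 13.6 to 17.1 CPM in virgin S-961 libraries, 3.32 to 6.55 CPM in multipara S-961 replicates 1 to 3 and 18.65 CPM in replicate 4. *Gad2* and *Gabra4* in multipara S-961 4 were thus inside or above the range of the virgin S-961 libraries and outside that of the other multipara S-961 libraries.

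Downstream of the receptors, 12 of 39 genes for G proteins and cAMP signalling rose and 4 fell in virgin islets, and 12 rose and 3 fell in multipara islets. *Adcy9*, an adenylyl cyclase (1.64 ± 0.37 and 1.79 ± 0.37), and *Crem*, a CREB relative (1.35 ± 0.28 and 1.07 ± 0.27), rose in both, and *Gnai2*, for a Gi alpha subunit, fell in both (-0.56 ± 0.19 and -0.64 ± 0.18). Of 15 phosphodiesterases, the enzymes that break down cyclic nucleotides, 5 rose in virgin and 4 in multipara islets and 0 fell. *Pde10a* rose by 1.40 ± 0.26 and 1.77 ± 0.26, *Pde4c* by 1.47 ± 0.21 in virgin, and *Pde3b* (1.36 ± 0.16) and *Pde4d* (1.28 ± 0.23) in multipara islets. In the other parity group each was higher in every S-961 library too. For *Pde3b* these virgin values were 50.66 and 44.74 CPM untreated and 88.38 to 100.2 CPM with S-961. Of 23 genes for receptor desensitisation and RGS proteins, which switch G proteins off, 5 rose and 5 fell in each parity group. *Rgs4* (1.07 ± 0.38 and 2.01 ± 0.39) and *Rgs8* (1.86 ± 0.61 and 1.98 ± 0.61) rose in both, and *Rgs10* (-1.32 ± 0.38 and -1.86 ± 0.35) and the receptor partner *Ramp1* (-1.66 ± 0.20 and -1.31 ± 0.18) fell in both.

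Scaling by total counts left the CREB-responsive genes at 10 higher and 1 lower in virgin and 12 and 0 in multipara islets, the ligands at 1 and 7 and at 1 and 3, and the genes for G proteins and cAMP signalling at 20 and 0 and at 27 and 0. It put the other Gs-coupled receptors at 3 and 1 and at 6 and 0, the Gq-coupled ones at 7 and 2 and at 10 and 1, the Gi-coupled ones at 3 and 2 and at 4 and 1, and the ligand-gated subunits at 9 and 0 and at 14 and 0. Phosphodiesterases then stood at 8 and 0 and at 9 and 0, and desensitisation and RGS genes at 6 and 1 and at 8 and 2. With only 2 untreated libraries per parity, the list counts also moved when 1 was left out, as did those of all genes, from 3390 higher and 3172 lower to 1790 and 1713 (without untreated virgin 1) or 1548 and 1505 (without 2) in virgin islets. The CREB-responsive genes then stood at 8 higher and 1 lower in virgin islets with either library left out, and at 10 and 0 or 9 and 0 in multipara islets. The ligands stood at 0 and 8 or 0 and 7 in virgin islets, and at 1 and 6 without untreated multipara 1 or 0 and 3 without 2. For G proteins and cAMP signalling the counts were 5 and 1 or 6 and 0 in virgin islets and 3 and 1 or 8 and 3 in multipara islets. Phosphodiesterases stood at 3 in virgin and 5 or 4 in multipara islets, and desensitisation and RGS genes at 2 and 2 or 1 and 2 and at 2 and 2 or 3 and 7. Each of the 4 lists of other receptors then held 0 to 3 genes called higher and 0 to 3 called lower in virgin islets, and 1 to 4 higher and 0 to 4 lower in multipara islets. Among S-961 libraries, leaving out virgin 1 or 2 put the desensitisation and RGS genes at 2 and 3 or 2 and 2, and leaving out multipara 3 put the other Gs-coupled receptors at 2 and 3 and the other Gi-coupled ones at 3 and 5. Without multipara S-961 4 the CREB-responsive genes stood at 10 and 0 and the ligands at 1 and 7.

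**Figure D5:**
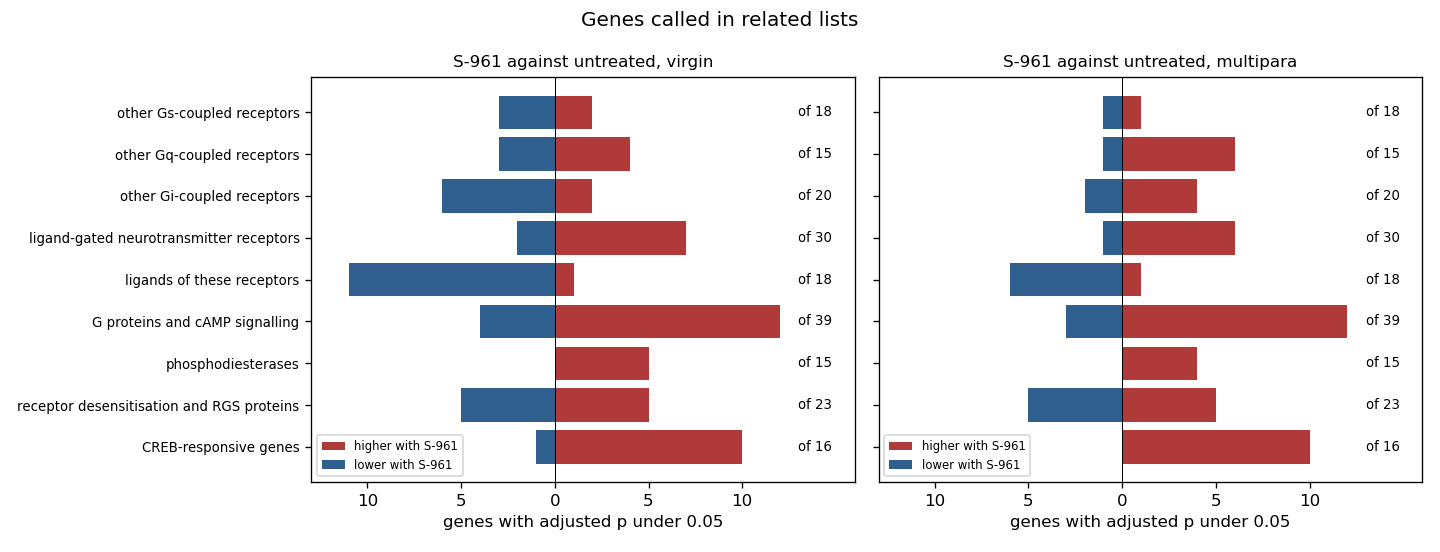
Number of genes called higher (right) or lower (left) with S-961 by edgeR (horizontal axes, genes with adjusted p under 0.05) in 9 lists, for virgin and multipara islets, with the number tested at the right. CREB-responsive genes reached 10 higher of 16 in each parity group, and ligands 11 and 6 lower of 18.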

How the data were processed

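Bulk RNA-seq of isolated islets was analysed in 11 libraries. The authors deposited 1 table per library with expected counts per gene, not normalized. The labels name a stranded poly(A) kit, and the submitters' processing notes name STAR, RSEM and GRCm38 (mm10), with versions not given in the sources used here. All 55536 identifiers matched GENCODE M21, which gave coordinates and exon lengths. Expected counts were rounded. Tests used edgeR 4.0.16 in R 4.3.3 (TMM, filterByExpr with minimum count 10 and total count 15, quasi-likelihood test) with Benjamini-Hochberg adjustment over all genes tested and a threshold of 0.05. Parity comparisons were fitted on their own libraries, S-961 comparisons and the interaction on all 11. Alternatives were DESeq2 1.42.0, its size factors, no filter, totals without *Ins1* and *Ins2*, an acinar marker score as covariate, each library left out, a replicate block and, added after the data were seen, total counts. The fits were tested on simulated counts.

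All 10 receptors passed the low-count filter in every comparison. Receptors, lists and marker lists were chosen with earlier results of these data known. From each list up to 3 called genes in each direction with the largest change were eligible to be named. *Gad2* in multipara islets falls outside that rule and was added after its values were seen. No 2 libraries were repeats of one another, as the chi-square per gene was 9.41 to 126.7 within groups. The labels give no sequencing batch or date. Depth was at least 29 reads per receptor and library, with the lowest counts in *Sstr2*. The biological coefficient of variation, a common value over all genes of a fit, was 0.266 to 0.293. Whether counting or the spread between libraries limits precision was not tested for single receptors. Figures were drawn in Python 3.11.15 with matplotlib 3.10.9. For *Sstr2* 1 neighbour by pattern is not reported here.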

Additional observations from a re-analysis of the deposited data

How the results depend on the processing

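Of 620 alternative values for single receptors, 534 kept direction and side of the threshold, 28 lost a call, 11 gained one and 47 changed sign. The count of receptors called with S-961 was 5 in virgin islets and 1 to 4 when a library was left out, with 1 without either untreated library, and 5 in multipara islets and 3 to 6 when a library was left out, with 3 without either untreated library. In untreated islets DESeq2 called 1 receptor where edgeR called 0. With only 2 untreated libraries per parity, leaving out 1 assumes that the lone library varies like the other groups. The cause of each change was not tested.

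Scaling by total counts turned the sign in virgin islets of *Glp1r* (0.42), *Gipr* (0.043), *Gpr119* (0.44) and *Chrm3* (0.38), in multipara islets of *Gcgr* (0.43) and *Sstr2* (0.38), and in the interaction of *Adra2a* (0.085). The acinar score turned *Gipr* (0.14), *Gcgr* (0.043), *Sstr3* (-0.017) and *Adra2a* (-0.19) in multipara against virgin with S-961, where *Adra2a* was also at -0.0021 under DESeq2, under its size factors and in the fit of all libraries. Without the filter *Galr1* was at -0.0069 in untreated islets, and totals without *Ins1* and *Ins2* put *Chrm3* at -0.0044 in multipara islets.

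With 1 library left out in turn, ranges that crossed 0 for multipara against virgin with S-961 were *Chrm3* -0.19 to 0.074, *Gipr* -0.15 to 0.045, *Adra2a* -0.077 to 0.10, *Gcgr* -0.16 to 0.00020, *Sstr3* -0.024 to 0.10. Ranges that crossed 0 for multipara against virgin without treatment were *Galr1* -0.21 to 0.18, *Adra2a* -0.18 to 0.23. Ranges that crossed 0 for S-961 in virgin islets were *Gpr119* -0.15 to 0.16, *Glp1r* -0.12 to 0.028, *Chrm3* -0.22 to 0.053. Ranges that crossed 0 for S-961 in multipara islets were *Chrm3* -0.18 to 0.24. Ranges that crossed 0 for the interaction were *Adra2a* -0.25 to 0.20, *Ffar1* -0.19 to 0.26, *Chrm3* -0.086 to 0.33, *Galr1* -0.42 to 0.010.

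Same-numbered libraries were not shown to be paired. The correlation of their deviations from the group mean was 0.0563, 0.0116 and 0.0931 between the S-961 groups and 0.28 between the untreated groups. With 2 libraries in each untreated group the deviations are equal and opposite. Both untreated pairs therefore give the same value, which counts as 1. With the number as a replicate block, edgeR called 6 receptors in virgin and 5 in multipara islets with S-961 and 0 in the other comparisons. It called *Gipr* in virgin (-0.54, adjusted p = 0.0216) and *Glp1r* in multipara islets (-0.98, adjusted p = 0.03), lost *Ffar1* in multipara islets (-0.90, adjusted p = 0.0621), called up to 1 gene higher and 2 lower per list in multipara against virgin with S-961 and up to 1 and 1 in the interaction, and put *Galr1* at -0.0043 in untreated islets and *Adra2a* at 0.042 in the interaction.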
